A study of Mus musculus with 11 samples.

Results

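Hox genes encode homeodomain transcription factors that pattern the body from head to tail. The members are the 39 symbols of Hoxa, Hoxb, Hoxc or Hoxd followed by a number, out of 49997 symbols that both deposited tables list. The family was chosen by its L-cell difference between estradiol and vehicle, already seen in these libraries, so that difference is a description here and is not support for a direction. RNA was sequenced from colonic L cells, which secrete hormones such as peptide YY, and from enterochromaffin (EC) cells, the serotonin source of the gut. All donors were ovariectomised C57BL/6 females aged 10 to 14 weeks. They were given estradiol benzoate (EB), an ester of the ovarian hormone estradiol, or its sesame oil vehicle, and the comparison is of these treatments within each cell type. L cells came from Cck-Cre;R26LSL-tdTomato mice, in which Cre driven by the cholecystokinin gene switches on a red fluorescent protein, and were isolated 4 hours after treatment, with about 7000 cells for each treatment, giving 3 libraries after EB and 2 after vehicle. The EC cells were from ECFLTG mice, a line the labels do not describe further, with at least 500 cells for each sample, giving 4 EB and 2 vehicle libraries. The labels give no separate time after treatment for EC cells. Whether each library stands for its own mouse is not stated, and a p-value here therefore weighs a difference against a spread that may be technical. No library records where along the colon its cells were taken.

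In mammals Hox genes lie in 4 clusters, and the members of the clusters that match in sequence and position form paralogue groups, numbered from 1 at one end of a cluster to 13 at the other. Low-numbered groups act in the hindbrain, neck and upper trunk of the embryo, and high-numbered groups act in the tail end, the urogenital system and the hindgut. In the adult gut the Hox genes expressed by the epithelium keep a record of position, with higher-numbered groups used towards the rectum. Hoxb13 is the most posterior gene of its cluster and is known from the distal colon, the rectum and the prostate.

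The reads counted on genes numbered 27658579 to 31449447 per L-cell library and 4955808 to 10640921 per EC-cell library. The labelled cell types were set against their markers. Transcripts of 6 L-cell genes, among them Pyy and Gcg, made up 0.0585% to 0.282% of all reads for L-cell EB libraries and 0.0168% to 0.0431% in the L-cell vehicle libraries, where 8 colonocyte genes took 5.40% to 5.85% under EB and 7.28% to 8.93% under vehicle. In EC-cell libraries the 6 L-cell genes took 0.117% to 1.02% under EB and 0.254% to 1.77% under vehicle, and 8 serotonin-cell genes took 0.814% to 12.4% under EB and 7.40% to 8.86% under vehicle. The names L cells and EC cells therefore stand for the libraries so labelled. EC-cell EB replicates 1 and 2 stood apart, with 4984 and 5708 normalised counts of Tph1, the serotonin-forming enzyme, and 135246 and 122418 of Car1, a colonocyte carbonic anhydrase. EB replicates 3 and 4 had 29229.8 and 37566 counts of Tph1 and 25293 and 10144 of Car1, against 34468 and 46423 of Tph1 and 14388 and 1740.1 of Car1 in the vehicle libraries. EC-cell EB replicate 3 had reads on 30288 symbols, against 15868 to 19859 in the other 5 EC-cell libraries. Values were normalised counts, deposited for each cell type in a table of its own, and in bulk RNA fewer cells of a type and less RNA per cell cannot be told apart.

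Genes were kept in a table when 2 or more of its libraries had 10 normalised counts or more. That left 25 Hox genes in L cells and 21 in EC cells, 19 of them in both. The L-cell table alone kept Hoxa2, Hoxa13, Hoxd10, Hoxd11, Hoxd12 and Hoxd13, and the EC-cell table alone kept Hoxc5 and Hoxc6. Kept in neither table were 12 genes, among them Hoxc8 to Hoxc13 and Hoxd9. Just inside the limit stood Hoxb8 in L cells, whose values of 12.1 and 14.5 in EB replicates 1 and 3 let it pass although no vehicle library reached 10. Just outside stood Hoxd9, with its highest L-cell value at 11.1 in a single library, and Hoxa13 in EC cells, with 48.5 in vehicle replicate 2 and at most 0.463 elsewhere. By cluster, the 11 Hoxa genes lie on chromosome 6, the 10 Hoxb genes on chromosome 11, the 9 Hoxc genes on chromosome 15 and the 9 Hoxd genes on chromosome 2. The L-cell reads of the whole Hoxc cluster numbered 25, against 4684 for Hoxa, 33731 for Hoxb and 2534 for Hoxd. In EC cells the Hoxc cluster had 334 reads, Hoxa had 4451, Hoxb had 9586 and Hoxd had 274.

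**Figure D1:**
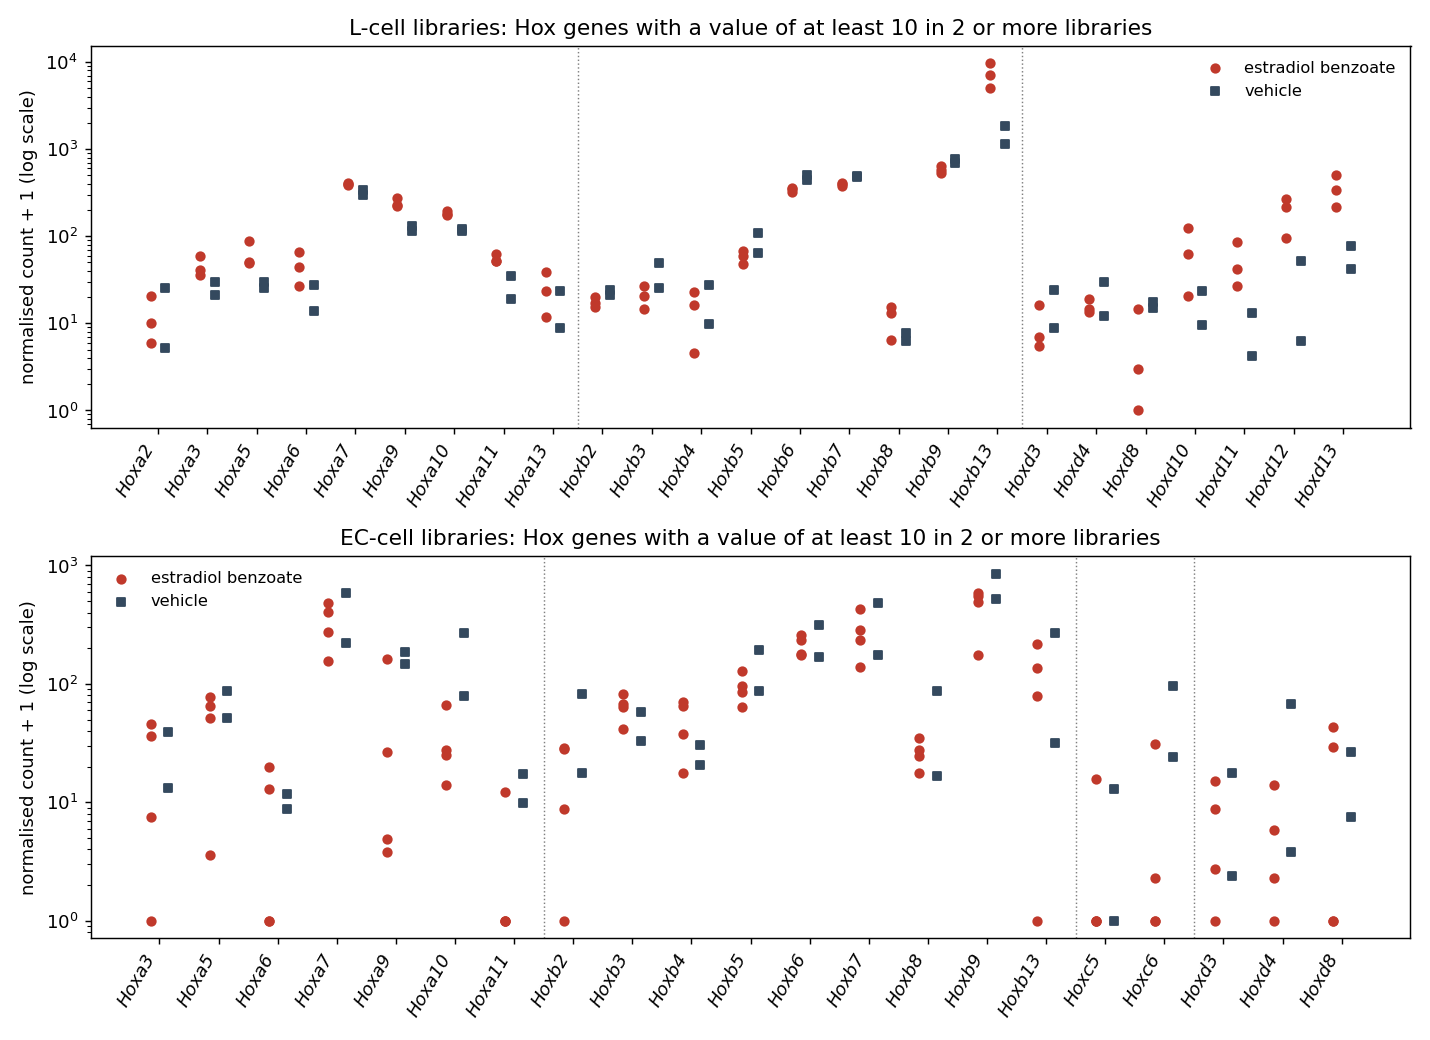
Normalised count + 1 on a log scale for every Hox gene kept in a table, ordered by cluster and paralogue number, with each EB library as a circle and each vehicle library as a square. In L cells Hoxb13 stands far above the rest, at 5063 to 9676 under EB and 1132 to 1840.3 under vehicle, and in EC cells the points of most genes spread widely within a treatment.

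At the posterior end of the Hoxd cluster Hoxd13, Hoxd12, Hoxd11 and Hoxd10 follow each other on the plus strand of chromosome 2. Their promoters run from 250 bases before to 50 bases after a start listed in RefSeq (GRCm38.p6, the assembly of mm10). For Hoxd10 the listed start lies inside the range of the gene, chr2:74684273-74695106. The promoters are shown because these neighbours were all kept in L cells and had at most 4 reads each over the EC-cell libraries. Capitals mark matches to the TATA box letters TATAAA in Hoxd13, to the caudal-type (Cdx) letters TTTATG in Hoxd11 and to the estrogen response half-site AGGTCA in Hoxd10, searched on both strands.
Hoxd13, chr2:74667975-74668274: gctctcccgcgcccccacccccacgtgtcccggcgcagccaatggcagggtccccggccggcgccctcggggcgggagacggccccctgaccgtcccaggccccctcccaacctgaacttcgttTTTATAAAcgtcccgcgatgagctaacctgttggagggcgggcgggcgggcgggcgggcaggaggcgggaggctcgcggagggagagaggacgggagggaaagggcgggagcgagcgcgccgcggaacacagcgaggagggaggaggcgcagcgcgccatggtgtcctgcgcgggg
Hoxd12, chr2:74674763-74675062: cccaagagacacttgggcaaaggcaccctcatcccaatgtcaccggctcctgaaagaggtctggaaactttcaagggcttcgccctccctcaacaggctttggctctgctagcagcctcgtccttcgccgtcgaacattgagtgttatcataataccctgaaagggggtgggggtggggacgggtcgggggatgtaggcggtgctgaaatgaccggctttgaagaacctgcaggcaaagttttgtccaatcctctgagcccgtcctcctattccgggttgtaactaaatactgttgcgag
Hoxd11, chr2:74679308-74679607: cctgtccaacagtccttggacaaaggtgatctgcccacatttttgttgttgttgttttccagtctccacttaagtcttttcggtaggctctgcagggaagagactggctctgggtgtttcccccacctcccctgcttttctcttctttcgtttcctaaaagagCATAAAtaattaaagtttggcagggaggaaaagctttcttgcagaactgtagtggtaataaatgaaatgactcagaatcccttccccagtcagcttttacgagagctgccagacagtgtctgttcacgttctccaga
Hoxd10, chr2:74691641-74691940: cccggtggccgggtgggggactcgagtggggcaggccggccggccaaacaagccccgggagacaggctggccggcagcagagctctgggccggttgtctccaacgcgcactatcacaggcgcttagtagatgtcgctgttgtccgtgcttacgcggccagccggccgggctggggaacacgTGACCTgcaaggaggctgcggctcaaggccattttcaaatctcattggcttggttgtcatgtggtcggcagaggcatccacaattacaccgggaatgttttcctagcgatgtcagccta

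The marked run in Hoxd13 holds TATAAA on both strands, overlapping, with the first match 126 bases before the start. The Hoxd11 match lies on the minus strand 87 bases before the start, and the Hoxd10 match lies on the minus strand 69 bases before it. Hoxd12 held none of these letters in this window, and neither did a second listed start of Hoxd11. RefSeq promoters were at hand for 22 of the 39 Hox genes, as 24 sequences, with no entry for Hoxb13. The half-site was found in 7 of these 24 and in 16.3% of all 32851 promoters, the Cdx letters in 5 and in 11.9%, and the TATA letters in 4 and in 13.6%. The full palindromic response element, a pair of half-sites, was in 0 of the 24 and in 0.070% of all promoters. These matches are descriptions of the letters alone.

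In L cells the kept Hox genes of groups 10 to 13 had higher mean values under EB than under vehicle, Hoxb13 among them, while the trunk genes Hoxb6, Hoxb7 and Hoxb9 had slightly lower ones. Of the 25 genes kept, 14 had a higher mean under EB on the log2 scale and 11 a lower one. All 8 kept members of groups 10 to 13 were higher, with a median log2 fold change of 2.07, which was 0.87 over all members of these groups without the filter. The filter bears on that count, since Hoxa13, Hoxd10, Hoxd11 and Hoxd12 reached 10 in 1 vehicle library each and passed it through the EB libraries, and Hoxc10 to Hoxc13, which were not kept, had 0 in every EB library and at most 12.3 in a vehicle library. In groups 5 to 9, 5 of 10 were higher, with a median of 0.010 that was -0.33 at a filter of 50, and in groups 1 to 4, 1 of 7 was higher, with a median of -0.38. Over all 16217 genes tested the median was -0.0022 and 49.7% were higher. For 10 Hox genes every EB library exceeded every vehicle library, a pattern shown by 14.3% of all genes tested, and for 5 every EB library lay below every vehicle library, a pattern shown by 14% of all genes.

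Hoxb13, at chr11:96194316-96196610 in mm10, had 9676, 7035 and 5063 normalised counts in the EB libraries, against 1132 and 1840.3 in the vehicle libraries. The groups did not overlap. The means were 7258 ± 2315 under EB and 1486 ± 501 under vehicle (SD, n = 3 and 2), a log2 fold change of 2.28 ± 0.29 (SE). In limma, the main test, the adjusted p was 0.0784, in edgeR's quasi-likelihood test on the recovered reads it was 0.146, and in DESeq2 on the same reads it was 1.96e-10. Of these 3 tools DESeq2 alone put the gene past the threshold of 0.05. In limma it also passed without the filter on low values, at an adjusted p of 0.000412, and after quantile normalisation, at 0.0313. With a replicate block the adjusted p was 0.0138, and leaving out an EB library gave 0.130 to 0.417. It was 0.0789 at a filter of 50, 0.0711 with TMM factors, and 0.0876 and 0.0675 with pseudocounts of 0.5 and 4. Leaving out vehicle replicate 1 or 2 left a single vehicle library, with log2 fold changes of 1.93 and 2.63. Of all genes, limma called 0.379% without the filter, 0.0925% after quantile normalisation and 0.345% with the block.

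Hoxd13, which with Hoxa13 shapes the digits, the urogenital tract and the end of the hindgut, had 341, 504 and 218 normalised counts under EB, against 41.5 and 76.2 under vehicle. Its log2 fold change was 2.55 ± 0.42, with an adjusted p of 0.118 in limma and 4.71e-06 in DESeq2. Hoxd12, its neighbour in the limb and urogenital programme, had 216, 264 and 94.9 counts under EB, against 5.32 and 50.4 under vehicle. The vehicle libraries themselves were far apart for Hoxd12, and the log2 fold change was 3.29 ± 0.85, at an adjusted p of 0.234 by limma and 0.0158 by DESeq2. Hoxd11, which acts with Hoxa11 in the forearm and kidney, had 84.4, 40.8 and 26.2 counts under EB, against 3.19 and 12.3 under vehicle, a log2 fold change of 2.62 ± 0.77. Hoxd10, a gene of the lumbar spinal cord and hindlimb, had 123, 61.6 and 19.9 counts under EB, against 8.51 and 22.4 under vehicle. For Hoxd10 the groups overlapped, since EB replicate 3 lay below vehicle replicate 2. In each of these 4 Hoxd genes EB replicate 3 was the lowest EB library, as it was for Hoxb13.

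In the Hoxa cluster the log2 fold changes reached at most 1.13. Hoxa9, best known from blood progenitors and leukaemia, had 276, 221 and 229 normalised counts under EB, against 131 and 115 under vehicle, a log2 fold change of 0.97 ± 0.25 with an adjusted p of 0.234 in limma and 0.0324 in DESeq2. Hoxa10, a gene of the uterus that responds there to ovarian hormones, had 173, 179 and 195 counts under EB, against 113 and 121 under vehicle, a log2 fold change of 0.64 ± 0.25. Hoxa11, its partner in the uterus, had 61.3, 50.7 and 51.5 counts under EB, against 18.1 and 33.6 under vehicle, a log2 fold change of 1.11 ± 0.47. For these genes the EB libraries lay close together and all above the vehicle libraries. The exons of Hoxa11 share 35.0% of their bases with the antisense RNA Hoxa11os, and the tagmentation library does not mark strand, so their reads cannot be told apart there. Hoxa13 was low and mixed, with 38.2, 10.9 and 22.6 counts under EB, against 22.3 and 7.85 under vehicle.

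Among the lower-numbered Hoxa genes, Hoxa7 had 387, 399 and 413 normalised counts under EB, against 296 and 338 under vehicle, a log2 fold change of 0.33 ± 0.19. Hoxa5, needed for the lung and the stomach in mice, had 49.3, 48.0 and 86.7 counts under EB, against 28.7 and 24.7 under vehicle. Hoxa3, a gene of the thymus and parathyroid, had 35.2, 39.9 and 57.8 counts under EB, against 28.7 and 20.2 under vehicle. In each of these 3 genes all EB libraries lay above both vehicle libraries. Hoxa6 was higher on average and Hoxa2 was lower, and both overlapped between treatments. In Hoxa7, 20.4% of exonic bases are shared with the antisense RNA Hoxaas3.

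The Hoxb genes other than Hoxb13 mostly had lower means under EB, none past the test. Hoxb9 had 571, 533 and 647 normalised counts under EB, against 697 and 776 under vehicle, a log2 fold change of -0.34 ± 0.17. Hoxb7 had 404, 375 and 393 counts under EB, against 475 and 497 under vehicle, a log2 fold change of -0.31 ± 0.18. Hoxb6 had 351, 322 and 356 counts under EB, against 511 and 442 under vehicle, a log2 fold change of -0.47 ± 0.19 with an adjusted p of 0.404 in limma. These 3 genes, with the low Hoxb2, had every EB library below every vehicle library. Hoxb5, which acts in neurons of the gut wall, had 58.3, 47.1 and 66.9 counts under EB, against 107 and 63.9 under vehicle, and the groups overlapped. Hoxb3 had 26.1, 13.6 and 19.9 counts under EB and 47.9 and 24.7 under vehicle, and Hoxb4, known for its part in blood stem cells, had 22.1, 3.62 and 15.4 under EB and 26.6 and 8.97 under vehicle. In all, 7 of the 8 Hoxb genes of groups 2 to 9 were lower under EB, with Hoxb8 the exception, and Hoxb13 lies 74.7 kb from Hoxb9, the nearest of them. Of the other Hoxd genes, Hoxd3, Hoxd4 and Hoxd8 were lower under EB, with means of 8.64, 14.8 and 5.19 counts under EB and 15.6, 19.96 and 15.3 under vehicle, and for Hoxd8 every EB library lay below both vehicle libraries.

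No L-cell Hox gene passed an adjusted p of 0.05 in limma, where 0.0247% of all genes did, and none passed in edgeR, where 0 of all genes did. DESeq2 called 4, namely Hoxb13, Hoxd13, Hoxd12 and Hoxa9, all higher under EB, where it called 3.22% of all genes. At an unadjusted p under 0.05 limma counted 9 Hox genes, where 11.6% of all genes were counted, and edgeR and DESeq2 also counted 9 each, where they counted 11.4% and 12.9% of all genes. Without vehicle replicate 2, limma called Hoxb13 and Hoxd12, with adjusted p of 0.0233 and 0.0344, where 0.334% of all genes were called, the single vehicle library left being assumed to vary like the EB libraries. In the same EB libraries the 6 L-cell genes and all 7 measured goblet-cell genes were also higher on average and 7 of 8 colonocyte genes lower. Goblet-cell genes took 1.20% to 2.46% of reads under EB and 0.594% to 1.20% under vehicle. Stromal genes, whose cells also express Hox genes, took 0.000798% to 0.00101% under EB. Under vehicle they took 0.00143% in replicate 1 and 0.0279% in replicate 2, so the high vehicle value rests on 1 library. Neuron and glia genes took 0.00039% to 0.000818% under EB and 0.000161% to 0.000162% under vehicle, with the glial gene Sox10 at 0. Of the kept genes of each marker list, 1 of 7 stromal, 4 of 5 neuron and glia, 1 of 3 endothelial, 4 of 5 immune, 5 of 6 serotonin-cell and 8 of 8 cell cycle genes were higher under EB. The part of these cell types in the Hox values was not tested.

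**Figure D2:**
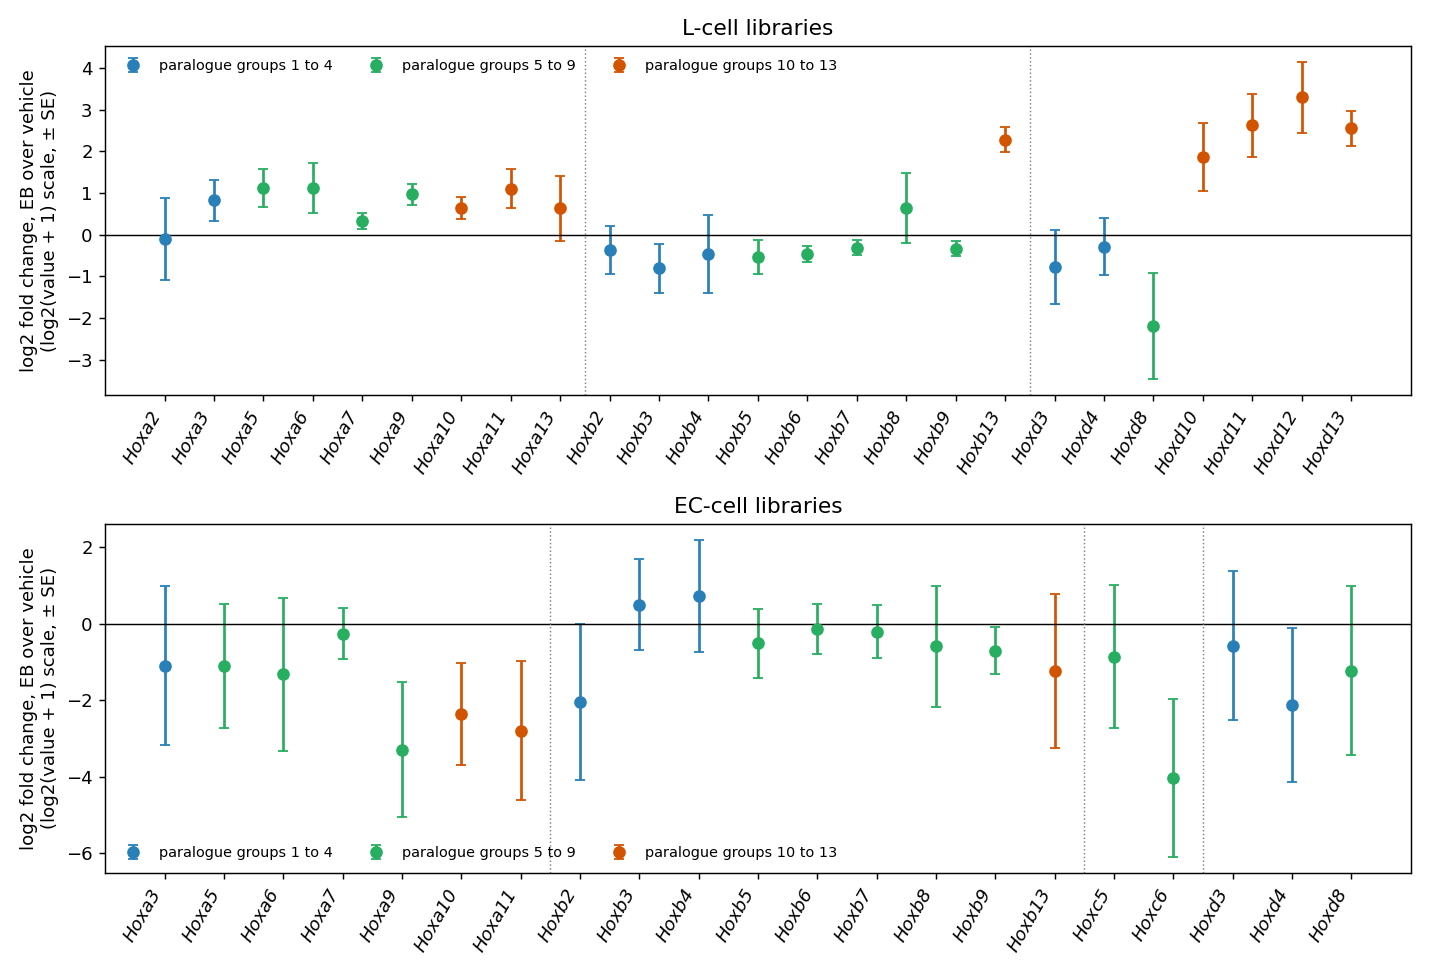
Log2 fold change of EB over vehicle, on the log2(value + 1) scale, with its standard error, for each Hox gene kept in L cells (upper panel) and EC cells (lower panel), coloured by paralogue class. In L cells the points of groups 10 to 13 lie between 0.63 and 3.29, and in EC cells the error bars are long and 19 of 21 points lie below 0.

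The share of each paralogue class among a library's own Hox reads does not depend on how a table was scaled. In L cells, groups 10 to 13 took 82.4%, 79.5% and 69.9% of Hox reads under EB, against 35.2% and 47.2% under vehicle. The exact (Clopper-Pearson) 95% intervals, which cover counting error only, ran from 68.9% to 83.1% over the EB libraries and from 33.7% to 48.7% over the vehicle libraries. The means were 77.3% ± 6.55 under EB and 41.2% ± 8.44 under vehicle (SD, n = 3 and 2), and groups 5 to 9 took 21.4% under EB and 54.9% under vehicle. A share also falls when other Hox reads rise, so the share of groups 5 to 9 alone does not show a lower level. Of the 10 kept genes of groups 5 to 9, 5 were higher under EB and 5 lower. Hoxb13 alone took 74.4%, 68.6% and 62.2% of Hox reads under EB, against 29.6% and 39.9% under vehicle. For each read of Hoxb9 there were 16.9, 13.2 and 7.83 reads of Hoxb13 under EB, against 1.62 and 2.37 under vehicle. In CPM, the usual scaling of reads to the reads counted on genes in a library, all Hox genes together reached 468, 360.0 and 288 under EB, against 127 and 141 under vehicle, and Hoxb13 accounted for most of the gap.

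**Figure D3:**
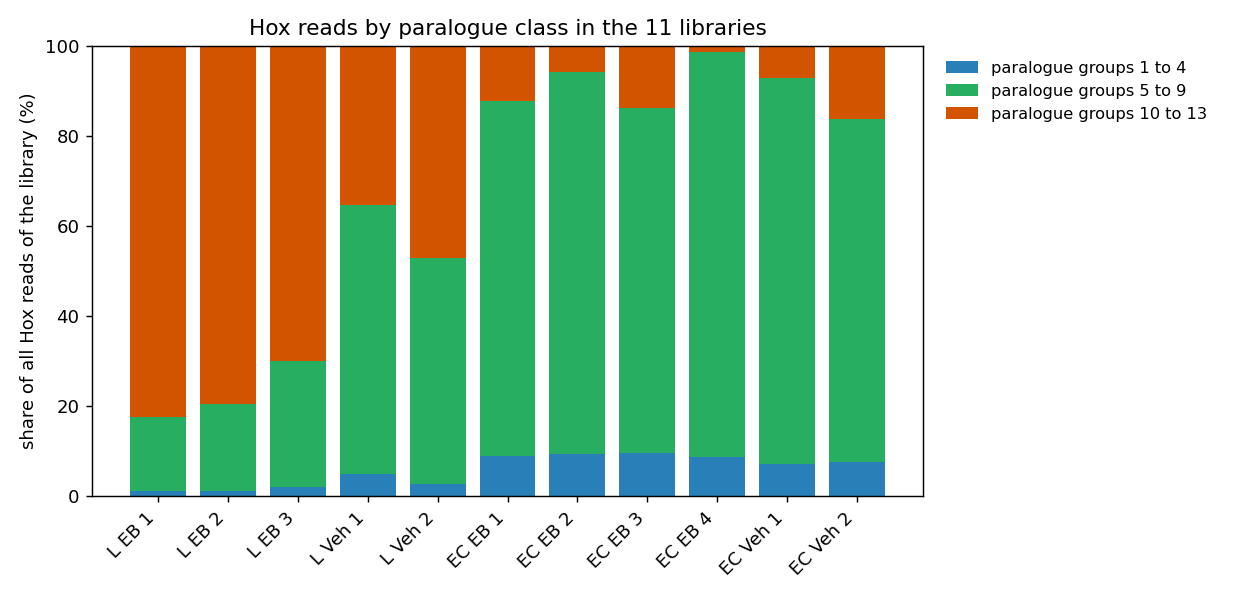
Percent of each library's Hox reads on paralogue groups 1 to 4, 5 to 9 and 10 to 13, as stacked bars, for the 11 libraries. Groups 10 to 13 fill 69.9% to 82.4% of the bar in the L-cell EB libraries, 35.2% and 47.2% in the L-cell vehicle libraries and at most 16.2% in the EC-cell libraries.

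In EC cells most Hox genes had lower means under EB, none of them past the test, and the libraries of a treatment were far apart. Of the 21 genes kept, 2 were higher under EB, Hoxb3 and Hoxb4, and 19 were lower, with median log2 fold changes of -0.83 in groups 1 to 4, -0.78 in groups 5 to 9 and -2.37 in groups 10 to 13. The median of groups 1 to 4 turned to 0.62 at a filter of 50 and to 0.59 without EB replicates 1 and 2. Over all 15287 genes tested the median was -0.071 and 47.5% were higher. Hoxb8 was higher after quantile normalisation, and Hoxd8 was higher in edgeR and DESeq2. With EB replicates 1 and 2 left out, a check added after the data were seen, 8 Hox genes were higher. Without vehicle replicate 2 the number was also 8, and without EB replicate 1, or without EB replicate 4, it was 4. Hoxa10 was the one gene with every EB library under both vehicle libraries, a pattern shown by 6.3% of all genes, and 0 had every EB library above, a pattern shown by 4.98%.

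Hoxb13 in EC cells had 136, 78.2, 216 and 0 normalised counts under EB, against 30.6 and 269 under vehicle, and the groups overlapped. The absence of reads in EB replicate 4 allows up to 0.441 CPM there. Hoxa10 had 23.9, 13.03, 65.7 and 26.4 counts under EB, against 78.7 and 268 under vehicle, a log2 fold change of -2.37 ± 1.34 with an adjusted p of 0.905 in limma. Hoxa9 had 2.81, 3.91, 161 and 25.6 counts under EB, against 184 and 147 under vehicle, so that EB replicate 3 alone fell in the vehicle range. Hoxa11 had 11.2 counts in EB replicate 3 and 0 in the other 3 EB libraries, against 16.2 and 8.82 under vehicle. The fold changes without EB replicate 3 were -2.79 for Hoxa10 and -4.38 for Hoxa9. Hoxa13 had 0 reads in the EB libraries, and its vehicle values were 0.463 and 48.5.

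The trunk gene Hoxb9 had 173, 551, 579.9 and 494 normalised counts under EB, against 519 and 853 under vehicle. Hoxa7 had 156, 403, 273 and 479.9 counts under EB, against 221 and 589.9 under vehicle. Hoxb7 had 284, 137, 232 and 429.6 counts under EB, against 173 and 477 under vehicle. Treatments overlapped in each of these 3 genes. Hoxb6 had 236, 177, 173 and 256 counts under EB, against 167 and 314 under vehicle, a log2 fold change of -0.14 ± 0.65. Hoxb5 had 95.5, 62.5, 84.7 and 127 counts under EB, against 85.6 and 191 under vehicle. Of the genes higher under EB, Hoxb3 had 81.4, 40.4, 63.1 and 67.2 counts under EB, against 31.9 and 57.3 under vehicle, and Hoxb4 had 16.8, 63.9, 69.1 and 36.8 under EB, against 29.6 and 19.8 under vehicle. Over 52.9% of its exonic bases, reads of Hoxb3 cannot be told apart from those of the antisense RNA Hoxb3os.

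Several low EC-cell genes varied widely between libraries. Hoxa5 had 64.6, 2.61, 51.0 and 76.0 normalised counts under EB, against 50.9 and 86.0 under vehicle, and Hoxa3 had 0, 6.52, 35.4 and 44.8 under EB, against 38.0 and 12.1 under vehicle. Hoxc6, one of the Hoxc genes kept in EC cells and not in L cells, had 0, 1.30, 30.2 and 0 counts under EB, against 94.4 and 23.2 under vehicle. Its neighbour Hoxc5 had 14.7 counts in EB replicate 3 and 12.0 in vehicle replicate 1, and 0 in the other 4 EC-cell libraries. Hoxa6, Hoxb2, Hoxb8, Hoxd3, Hoxd4 and Hoxd8 overlapped between treatments, with means of 4.77 to 25.2 counts under EB and 8.96 to 50.9 under vehicle.

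In EC cells 0 Hox genes passed in limma, edgeR or DESeq2, where 0 of all genes passed in limma and in edgeR and 0.0981% passed in DESeq2. At an unadjusted p under 0.05 the Hox counts were 0 in limma, where 3.55% of all genes were counted, 0 in edgeR, where 2.71% were, and 1 in DESeq2, where 5.84% were. That gene was Hoxa10. DESeq2 gave no adjusted p for 5 Hox genes. Groups 10 to 13 took 12.2%, 5.84%, 13.8% and 1.28% of Hox reads under EB, against 7.02% and 16.2% under vehicle, and groups 5 to 9 took 82.6% ± 5.99 under EB and 81.0% ± 6.85 under vehicle (SD, n = 4 and 2). All Hox genes together reached 167, 219, 402 and 401 CPM under EB, against 364 and 673 under vehicle, with the lowest values in EB replicates 1 and 2, the libraries of low Tph1 and high Car1. In EC cells 8 of 8 colonocyte genes were higher under EB, taking 0.424% to 2.55% of reads under EB and 0.216% to 0.796% under vehicle. Higher under EB were also 2 of 7 goblet-cell, 0 of 6 L-cell, 0 of 8 serotonin-cell, 0 of 8 cell cycle, 2 of 3 stromal, 3 of 5 neuron and glia, 3 of 4 endothelial and 1 of 3 immune genes. Whether those libraries' cell make-up sets the Hox values was not tested.

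The estradiol difference itself was set between the cell types as the L-cell effect minus the EC-cell effect, in a fit over all 11 libraries that uses only differences within a table. Of the 19 Hox genes kept in both tables, 0 passed in limma, edgeR or DESeq2, where 0 of all 13802 genes passed in limma and in edgeR and 0.232% in DESeq2. At an unadjusted p under 0.05 limma counted 3, Hoxa9, Hoxa10 and Hoxa11, where 4.56% of all genes were counted. edgeR and DESeq2 counted 1 each, Hoxa10, where they counted 4.96% and 7.69% of all genes. Hoxa9 differed by 4.26 ± 1.92, Hoxa10 by 3.01 ± 1.23 and Hoxa11 by 3.90 ± 1.77 on the log2 scale (SE), each with an adjusted p of 0.862 in limma. Hoxb13 differed by 3.52 ± 2.56, and Hoxb6 by -0.33 ± 0.64. Hoxd10 to Hoxd13 could not enter, since EC cells did not keep them.

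The L-cell and EC-cell libraries were set side by side as CPM. The tables were normalised separately, and cell type, mouse line and table cannot be told apart. Of 27 Hox genes kept in either table, all 5 L-cell libraries exceeded all 6 EC-cell libraries in 2, Hoxd10 and Hoxd13, where 8.17% of all genes did. L-cell libraries lay below all EC-cell libraries in 7, Hoxa7 and Hoxb3 to Hoxb8, where 8.42% of all genes did. Without L-cell vehicle replicate 1, or without EC-cell EB replicate 3, the first count was 4. The first count is 7.41% of the 27 genes, close to the share among all genes, and the second is 25.9%. Both genes of the first kind belong to groups 10 to 13, and the 7 of the second kind belong to groups 3 to 8. For Hoxd10 the lowest L-cell value was 0.283 CPM, in vehicle replicate 1. The absence of reads in a single EC-cell library allows up to 0.282 to 0.605 CPM, so that library's separation was not settled at this depth.

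Hoxd13 averaged 12.5 CPM in L-cell EB libraries and 1.85 in L-cell vehicle libraries, and had 0 reads in all 6 EC-cell libraries. Against a limit of 3 reads over the EC-cell libraries together, which is 0.0751 CPM, the L-cell mean was at least 110-fold higher. Without 1 L-cell library the bound was 78.7-fold to 133-fold. Against the same limit it was 167-fold for the L-cell EB libraries and 24.7-fold for the L-cell vehicle libraries. Hoxd10 was at least 21.9-fold higher by the same limit, and at least 12.8-fold without L-cell EB replicate 1. Its bound was 32.3-fold for the L-cell EB libraries and 6.44-fold for the L-cell vehicle libraries. For both genes the bounds by treatment use the limit over all 6 EC-cell libraries, EB and vehicle together. A limit from the EC-cell libraries of that treatment alone would be higher, and the bound lower. Hoxd12 had 662 reads over the L-cell libraries and 4 over the EC-cell libraries, and Hoxd11 had 172 and 3, and all of the EC-cell reads of both genes were in EB replicate 3. Hoxb13 averaged 258 CPM in L-cell and 16.9 in EC-cell libraries under EB, and 46.9 in L-cell and 27.7 in EC-cell libraries under vehicle. Their ranges overlapped, with a lowest L-cell value of 37.6 and a highest EC-cell value of 49.2. On the other side, Hoxb7 averaged 14.5 CPM in L-cell and 49.7 in EC-cell libraries, Hoxb5 2.33 and 18.6, Hoxb3 0.892 and 9.46, and Hoxb8 0.304 and 5.80. Hoxb9 averaged 21.8 in L-cell and 92.6 in EC-cell libraries, and overlapped because of EC-cell EB replicate 1 at 22.004.

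**Figure D4:**
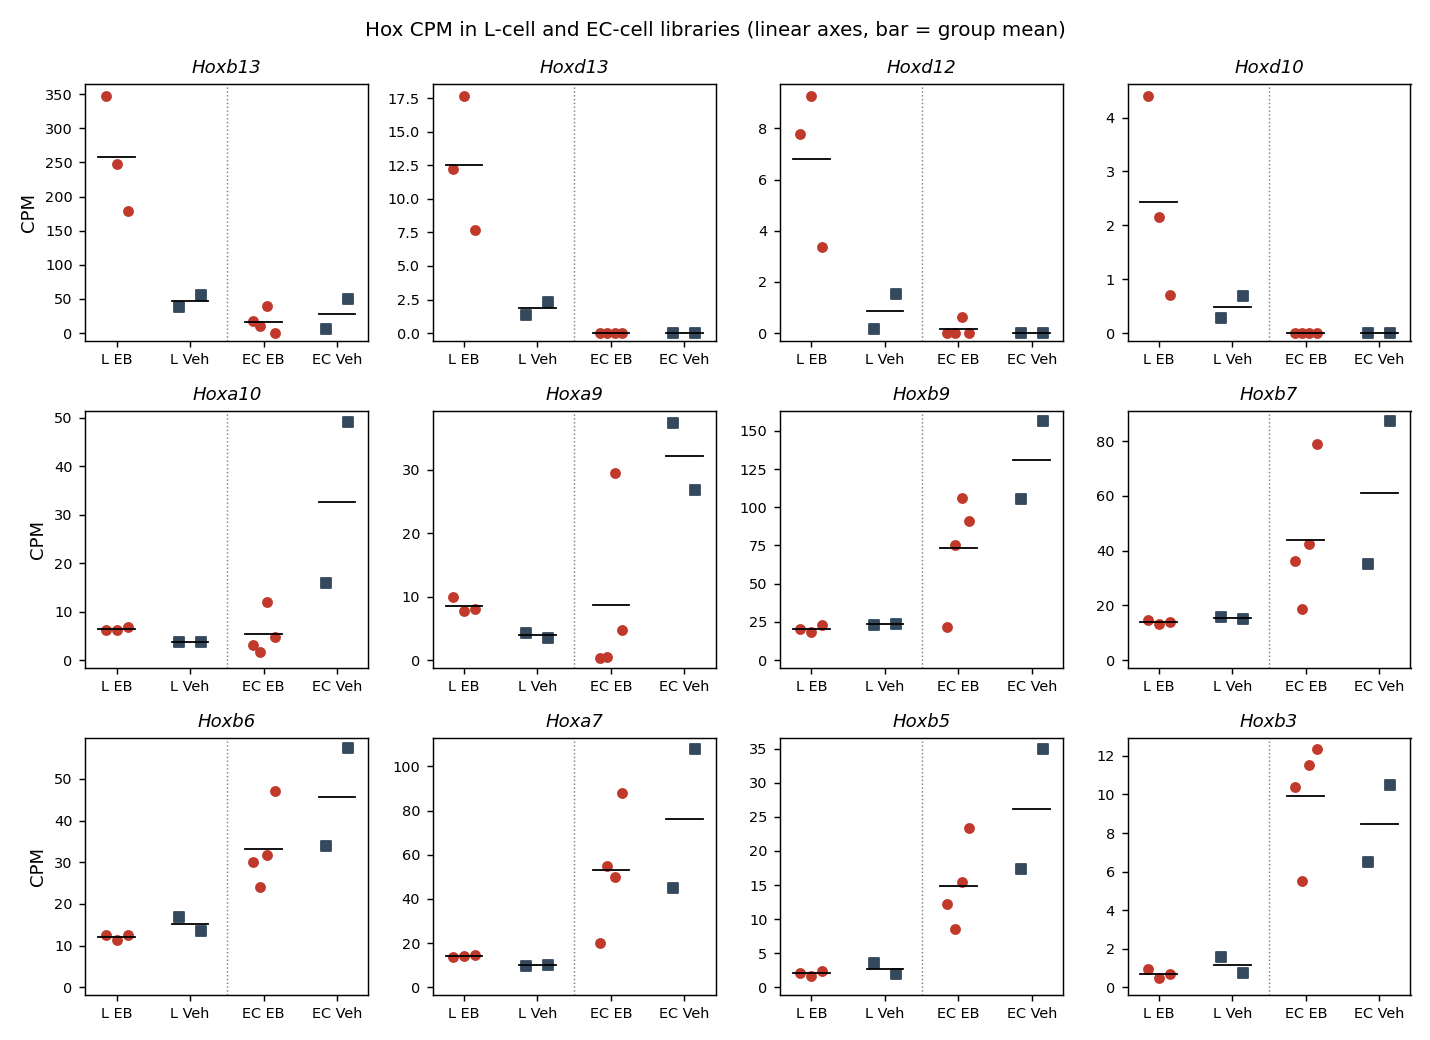
CPM of 12 Hox genes in L-cell and EC-cell libraries, EB as circles and vehicle as squares, with a bar at each group mean and linear axes that differ between panels. Hoxd13 and Hoxd10 are at 0 in every EC-cell library, while Hoxb3, Hoxb5, Hoxb6, Hoxb7 and Hoxa7 are lower in every L-cell library than in any EC-cell library.

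Per kilobase of exon, which allows genes to be compared, Hoxb13 was the highest Hox transcript in all 5 L-cell libraries. Its level was 158, 112 and 81.1 RPKM (CPM divided by the exon length in kilobases) under EB, against 17.0 and 25.5 under vehicle. The next gene in each L-cell library was Hoxb7, at 8.53 to 10.2 on the same scale. In all 6 EC-cell libraries the highest was Hoxb7 or Hoxb9. Hoxb7 led in EB replicates 1 and 4, at 23.4 and 51.1, and Hoxb9 led in EB replicates 2 and 3 at 29.2 and 41.3 and in the vehicle libraries at 40.9 and 60.7.

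Genes that work with the Hox family were read from lists, and none of their members passed in limma in either table. Of the TALE homeodomain partners of Hox proteins, 1 of 8 kept was higher under EB in L cells and 1 of 6 in EC cells. Meis3 had 611, 884 and 802 normalised counts under EB in L cells, against 820.2 and 983 under vehicle. Of the upstream regulators, 1 of 6 was higher under EB in L cells and 1 of 5 in EC cells. Cdx2, the intestinal master factor that activates Hox genes, had 3725, 4462 and 4238 counts under EB in L cells, against 5330.5 and 14702 under vehicle, a log2 fold change of -1.10 ± 0.36 with an adjusted p of 0.314 in limma and 0.0181 in DESeq2. Vehicle replicate 2 lay far above the other 4 libraries. Cdx1, its relative, had 14009, 18213 and 17397 under EB and 15879 and 18772 under vehicle.

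Of the Polycomb and trithorax subunits, which keep Hox genes silent or active, 9 of 17 were higher under EB in L cells and 5 of 17 in EC cells. By limma's fold change, all 5 kept non-coding RNAs of the Hox clusters were higher under EB in L cells and 0 of 5 were in EC cells. Hoxa11os, the antisense RNA of Hoxa11, had 1132, 539.8 and 671 normalised counts under EB in L cells, against 253 and 475 under vehicle. In EC cells it had 54.7, 59.9, 98.5 and 36.8 under EB, against 147 and 162 under vehicle. Hottip, transcribed from the Hoxa13 end of its cluster, had 260.3, 71.6 and 174 counts under EB in L cells, against 88.3 and 106 under vehicle, and the groups overlapped. Its EC-cell values were 0, 212, 32.0 and 0 under EB, against 14.4 and 30.9 under vehicle. There its sign depended on the tool, with log2 fold changes of -1.27 in limma, 1.44 in DESeq2 and 1.43 in edgeR.

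Of other genes that mark position in the gut, 8 of 11 kept were higher under EB in L cells and 0 of 6 in EC cells. Insl5, a peptide hormone of distal colonic L cells, had 165, 408 and 888 normalised counts under EB in L cells, against 77.7 and 22.4 under vehicle, with an adjusted p of 0.218 in limma and 0.0382 in DESeq2. Scnn1g, a subunit of the sodium channel of the distal colon, had 257, 459 and 242 counts under EB, against 36.2 and 28.0 under vehicle, a log2 fold change of 3.22 with an adjusted p of 0.0604 in limma and 3.44e-11 in DESeq2.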

How the data were processed

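Per the labels' protocols, the SMART-Seq HT kit gave full-length cDNA from the isolated cells, which was made into libraries by Nextera XT tagmentation. Tagmentation of this kind does not mark strand. Per the submitters' processing notes the tools were STAR, featureCounts and DESeq2, with no versions given, and the build was mm10. What was deposited is a gene-level signal, the normalised count, in 1 table per cell type. In every column 100% of values above 0 were whole multiples of 1 step to within 0.001 read, so whole reads were recovered.

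The main test was limma 3.58.1 (R 4.3.3) on log2(value + 1) with its mean-variance trend, over the genes kept (10 or more in at least 2 libraries), two-sided, Benjamini-Hochberg adjusted over all genes tested, called under 0.05. Fold changes are on this scale, and those of low genes can be smaller or larger than a count model's. edgeR 4.0.16 and DESeq2 1.42.0 on the recovered reads with the deposited size factors were alternatives, as were pseudocounts of 0.5 and 4, TMM factors, quantile normalisation, a minimum of 50, no minimum, a replicate block and each library left out. A fit of EC cells that leaves out EB replicates 1 and 2 was chosen after seeing the data. The method was also run on simulated data, with the outcome not reported here.

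The Hox family and the 14 gene lists were chosen with earlier results of these data known. Every kept Hox gene was named, with all libraries given for groups 9 to 13 and for the 8 most abundant of groups 1 to 8. Up to 4 abundant members were named from each other list, besides Cdx1, Cdx2 and Insl5. Some genes that this rule names are not reported here. Scnn1g was named after its values were seen. Prac1 was not analysed here. Promoter sequences came from RefSeq, exon lengths and overlaps from GENCODE M21, both on GRCm38. Reads from PCR without molecular identifiers are not independent molecules, so intervals and limits at 0 reads cover counting error only.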

Additional observations from a re-analysis of the deposited data

Results flagged for a closer look

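Among the 4 EC-cell EB libraries, replicate 3 stood far above the rest for 4 of the 21 Hox genes checked. The gap rule's rate of about 1 in 20 groups assumes normally spread values. It does not carry over to counts such as those of Hoxa11 and Hoxc5, at 0 in every other EB library. The share of all genes with such a gap was not counted, so the 4 are not a result about Hox genes. Its values were 161 normalised counts of Hoxa9, 11.2 of Hoxa11, 14.7 of Hoxc5 and 30.2 of Hoxc6. This library also had reads on more symbols than any other EC-cell library, 30288 against 15868 to 19859. The part of that breadth in the Hox values was not tested.

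Hoxa10 went opposite ways in L cells and EC cells, with all EB libraries above both vehicle libraries in L cells and all below both in EC cells. Its log2 fold change was 0.64 ± 0.25 in L cells and -2.37 ± 1.34 in EC cells (SE). The difference itself was 3.01 ± 1.23, with an unadjusted p of 0.0320 and an adjusted p of 0.862 in limma over all genes kept in both tables. Hoxa9, Hoxa11 and Hoxb13 also had opposite signs and differed by more, by 4.26, 3.90 and 3.52, while their EC-cell treatments overlapped. How many of all genes were separated in opposite directions was not counted.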

How the results depend on the processing

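In L cells the main test called 0 Hox genes. It called 3 without the filter, 1 after quantile normalisation, 4 in DESeq2 and 2 with a replicate block, and 0 to 2 with a library left out. The labels do not say what shared replicate numbers mean and only 2 pairs exist, with correlations of same-numbered deviations of 0.157 and 0.148 in L cells and 0.0361 and 0.00685 in EC cells, so the pairing is not established. In that block Hoxb13 was at 2.51 and Hoxd13 at 2.86. The number of L-cell Hox genes higher under EB was 14, with 8 at a filter of 50 and 13 to 16 with a library left out. The median of groups 10 to 13 was 2.07, with 0.87 without the filter and 1.56 to 2.57 with a library left out. That of groups 5 to 9 was 0.010, with 0.32 without the filter, -0.33 at a filter of 50 and -0.32 to 0.086 with a library left out. That of groups 1 to 4 was -0.38, with -0.70 after quantile normalisation and -1.06 to -7.3e-05 with a library left out, where vehicle replicate 1 gave the value nearest 0. No L-cell Hox gene changed sign under TMM factors, quantile normalisation, other pseudocounts, edgeR, DESeq2 or the block. With a library left out, Hoxa13 ran from -0.071 to 1.33 and Hoxb4 from -1.20 to 0.27.

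In EC cells the number higher under EB was 2, with 11 without the filter, 4 with the replicate block, 8 without EB replicates 1 and 2 and 2 to 8 with a library left out. The median of groups 1 to 4 was -0.83, with 0.62 at a filter of 50 and 0.59 without EB replicates 1 and 2. Leaving out that pair gave 0.85 for Hoxa3, 0.0040 for Hoxa7 and 0.13 for Hoxb7. With 1 library left out, Hoxa3 ran from -1.88 to 0.039, Hoxa7 from -0.97 to 0.45, Hoxb5 from -1.08 to 0.064, Hoxb6 from -0.60 to 0.31, Hoxb7 from -0.93 to 0.53 and Hoxb13 from -2.78 to 0.53, and the block gave 0.18 for Hoxb13. Genes with all L-cell libraries above all EC-cell libraries numbered 2 to 4 with a library left out. Over all genes, L-cell calls numbered 4 in the main test, 139 without the filter, 15 after quantile normalisation, 0 in edgeR, 522 in DESeq2, 56 with the block and 0 to 92 with a library left out. EC-cell calls numbered 0, with 15 in DESeq2, 24 with the block and 0 to 1 with a library left out. Calls of the difference numbered 0, with 32 in DESeq2 and 270 without EC-cell vehicle replicate 1, none of them a Hox gene. The causes were not tested. With 2 vehicle libraries a cell type and as few as 4955808 reads in an EC-cell library, small differences were not detectable.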
